A study of Rattus norvegicus with 13 samples.

Results

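The activin pathway was examined here through 10 genes chosen by name, namely the ligand subunits *Inhba* and *Inhbb*, the antagonist *Fst*, the receptors *Acvr1*, *Acvr1b*, *Tgfbr1*, *Acvr2a* and *Acvr2b*, and the transducers *Smad2* and *Smad3*. Each of the 10 had 1 row among the 14716 rows of the table, so the rule of taking the row with the highest mean was never needed. RNA-Seq was performed on the posterior ventricular zone (VZ), the progenitor layer lining the ventricle, of Long Evans rat pups on postnatal day 2 (PN2). The 7 control pups came from dams given vehicle in the drinking water and were euthyroid. The 6 PTU exposed pups came from dams given 3 ppm propylthiouracil (PTU), an inhibitor of thyroid hormone synthesis, from early gestation, and were hypothyroid. All pups were male, 1 per litter, and the tissue of each was taken by laser capture from both hemispheres, with RNA that the methods describe as partly degraded. PTU acts on the dam as well as on the pup, so a local effect and a systemic one cannot be told apart in this model.

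Activins are secreted dimers of beta subunits encoded by *Inhba* and *Inhbb*. An activin binds a type II receptor, which recruits and phosphorylates a type I receptor. The type I receptor then phosphorylates SMAD2 and SMAD3, which enter the nucleus with SMAD4 and regulate transcription. Follistatin, the product of *Fst*, binds activin outside the cell and keeps it from its receptors. In the developing brain, the activin and TGF-beta branch of this family is known for roles in progenitor proliferation and neuronal differentiation.

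The values are normalized counts, which are estimated reads per row divided by a factor for each pup. They are not corrected for transcript length, so a difference in level between genes is not read as a difference in abundance. The estimated depth ranged from 22295808 to 43511582 reads in control pups and from 28416307 to 44392207 in PTU exposed pups. Differences were tested with limma on log2(normalized count + 1) over all 14606 rows with a mean of at least 10, and all 10 genes passed this filter. Of these rows, 0 (0%) had an adjusted p of at most 0.05 and 2383 (16.3%) had an unadjusted p under 0.05, with 1185 (8.11%) higher and 1198 (8.2%) lower in PTU exposed pups. Without PTU pup 2, 179 rows had an adjusted p of at most 0.05, and without control pup 6, 7 rows did.

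Of the 10 genes, 1 had an unadjusted p under 0.05, which is not above the 16.3% found over all rows, and none had an adjusted p of at most 0.05. *Inhbb* was that gene, lower in every PTU exposed pup than in any control pup. Such a separation of the groups was found in 87 of the 14606 rows (0.596%), 38 lower (0.26%) and 49 higher (0.335%). The 10 genes had a median log2 fold change of 0.04 (PTU minus control), against 0.0038 over all rows, with 6 higher and 4 lower. The genes were listed with earlier results of these data known, so the count of 1 in 10 describes this list only.

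**Figure D1:**
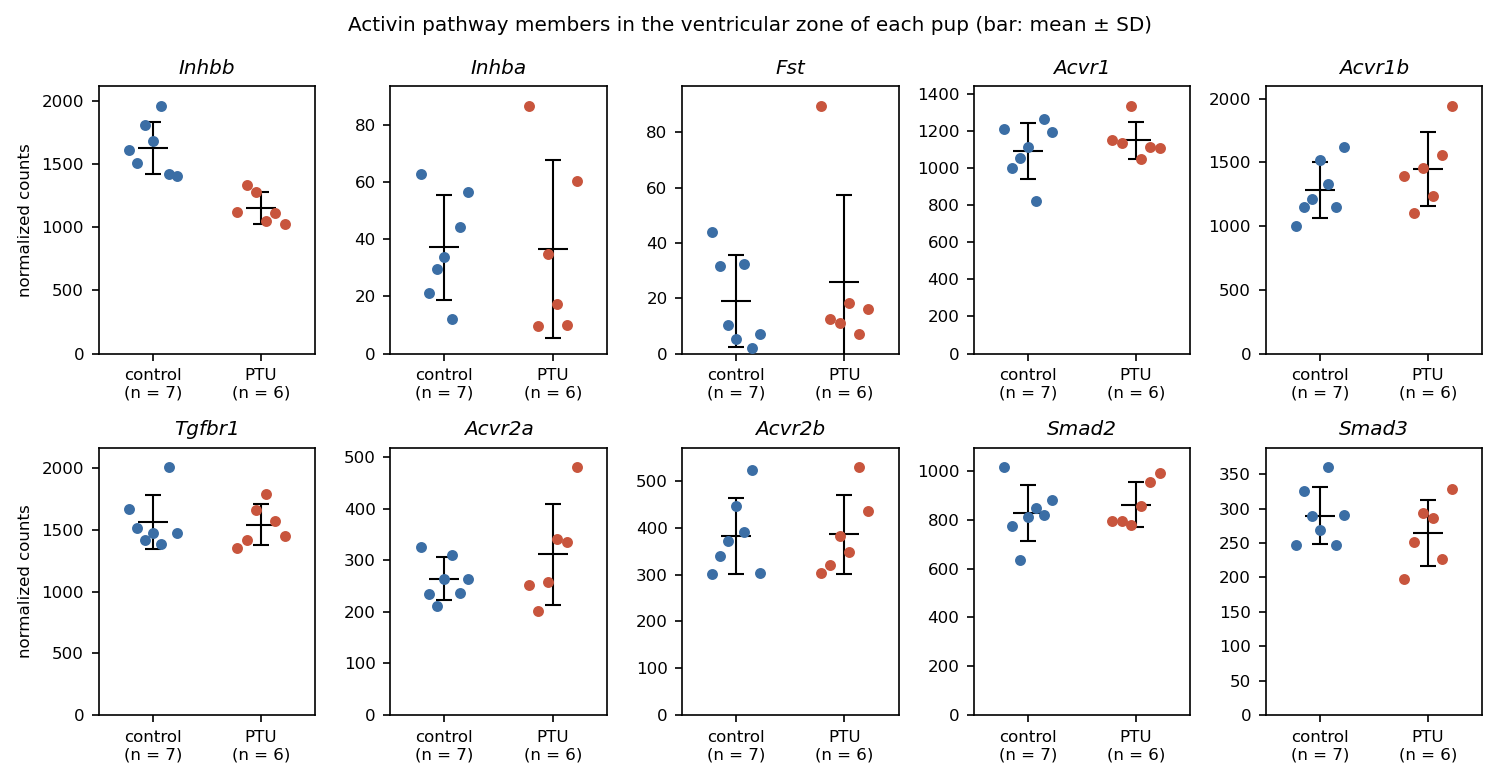
Normalized counts (vertical axes, starting at 0) of the 10 genes in each of 7 control (blue) and 6 PTU exposed (red) pups, 1 point per pup, with the mean and SD in black and the lower SD bar of *Fst* cut at 0. *Inhbb* is the only panel in which the groups do not overlap, with control pups from 1404 upwards and PTU exposed pups up to 1337, and *Inhba* and *Fst* show the widest spread relative to their means.

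*Inhbb* encodes the beta B subunit of activin B and of inhibin B (row ENSRNOT00000086350). In control pups its lowest, median and highest values were 1404, 1613 and 1962 normalized counts, and in PTU exposed pups they were 1028, 1116 and 1337. All PTU exposed pups lay below all control pups, and those closest to the other group were control pup 7 and PTU pup 2. The means were 1630 ± 206 (SD, n = 7) and 1154 ± 125 (SD, n = 6), a ratio of 0.708. The log2 fold change was -0.50 (SE, the standard error, 0.10; 95% interval -0.70 to -0.29), with an unadjusted p of 9.2e-05 and an adjusted p of 0.122 in limma. By unadjusted p, *Inhbb* stood 9th among the 14606 rows, and 91 rows (0.623%) had an adjusted p as low or lower. The exact permutation test (two-sided) gave p = 0.000583, the smallest that 7 against 6 pups allow. Between 1081 and 2114 estimated reads stood behind each value.

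The adjusted p of *Inhbb* was at or under 0.05 in 2 of the 23 alternatives tried. Without PTU pup 2, the exposed pup with the highest value, the log2 fold change was -0.54 with an adjusted p of 0.0305, and with pups weighted by quality it was -0.52 with an adjusted p of 0.0381 in limma. When all pups were scaled to equal totals, the log2 fold change of *Inhbb* was -0.29 (adjusted p = 0.532), while the median of all rows moved to 0.20. The 3 largest rows took 32.4 to 60.1% of a pup's normalized counts in controls (median 50.9%) and 23.9 to 57.0% in PTU exposed pups (median 35.8%), and their part in this shift was not tested. Relative to that median, the difference of *Inhbb* was -0.50. Under this scaling, 1584 rows were higher and 81 lower with an unadjusted p under 0.05.

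**Figure D2:**
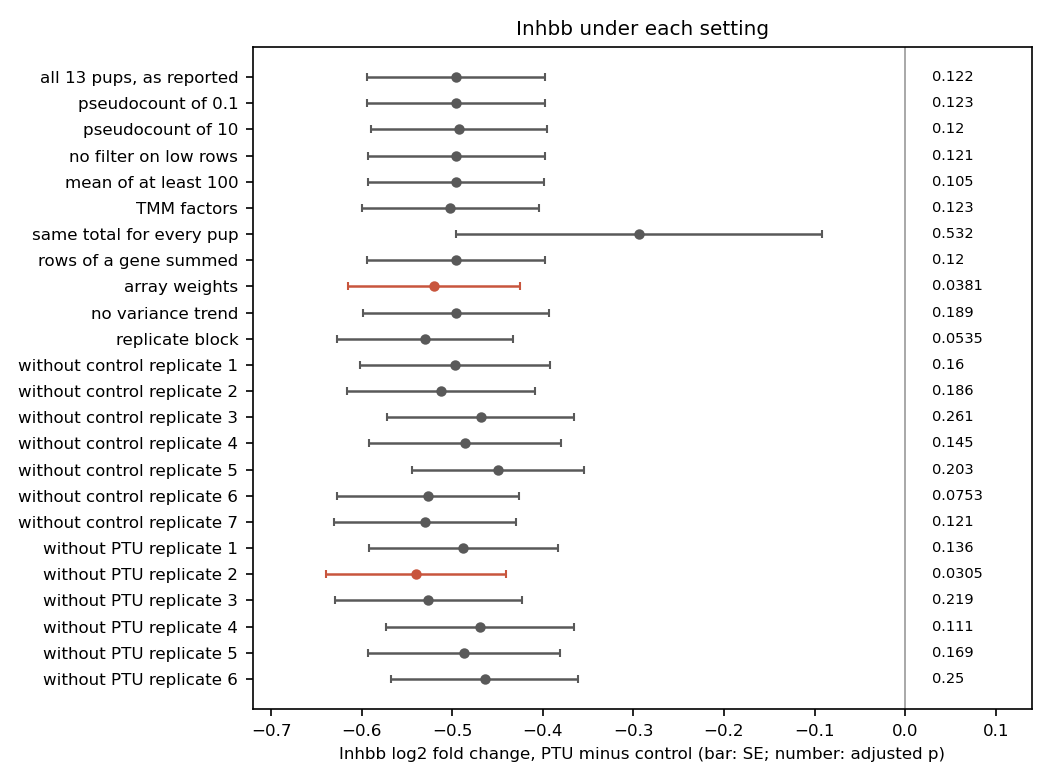
Log2 fold change of *Inhbb* (horizontal axis, PTU minus control; bars, standard error) in limma under the reported setting and 23 alternatives, with the adjusted p at the right and settings at or under 0.05 in red. The estimate stays between -0.54 and -0.45 with any 1 pup left out, and is nearest to 0, at -0.29, with the same total for every pup.

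The bases before the annotated start of both beta subunit genes are printed because these paralogs encode the same kind of subunit yet differed in their relative spread between pups. Sequences are from a table of RefSeq promoters on GRCr8, in which 8 of the 10 genes were matched by symbol. Each run is the 250 bases before the start on the gene's own strand, which is the minus strand for both genes, at chr13:33089374-33089623 for *Inhbb* and chr17:53804509-53804758 for *Inhba*, with capitals for a match to any motif searched.
Inhbb: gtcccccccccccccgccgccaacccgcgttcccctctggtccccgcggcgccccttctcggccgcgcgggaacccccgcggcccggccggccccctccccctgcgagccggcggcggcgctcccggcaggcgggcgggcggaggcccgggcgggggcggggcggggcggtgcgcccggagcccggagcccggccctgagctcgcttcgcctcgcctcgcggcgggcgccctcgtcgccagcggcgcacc
Inhba: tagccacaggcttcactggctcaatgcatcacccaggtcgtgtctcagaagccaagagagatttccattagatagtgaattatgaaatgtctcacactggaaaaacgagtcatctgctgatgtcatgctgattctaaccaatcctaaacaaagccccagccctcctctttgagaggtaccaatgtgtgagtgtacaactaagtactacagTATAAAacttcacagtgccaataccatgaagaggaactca
The *Inhbb* run was 86.8% G and C with 44 CG pairs, and the *Inhba* run was 43.6% G and C with 2 CG pairs, against medians of 51.6% and 5 over all 33360 such windows. Searched on both strands were AGGTCA, the half-site of thyroid hormone receptors, found in 14.1% of windows, CAGAC, a SMAD-binding element, found in 42.9%, and TATAAA, the TATA box, found in 12.9%. The *Inhbb* run held none of these, and the *Inhba* run held 1 TATAAA, which began 40 bases before the start. A match is a description of the letters, and binding was not measured.

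*Inhba* encodes the beta A subunit of activin A (row ENSRNOT00000019272) and had few reads. Its lowest, median and highest values were 12.1, 33.9 and 63.0 normalized counts in control pups, and 9.65, 26.2 and 86.8 in PTU exposed pups. The control range lay inside the PTU range, and PTU pup 1 had the highest value of all. The means were 37.2 ± 18.5 (SD, n = 7) and 36.6 ± 31.3 (SD, n = 6), with a log2 fold change of -0.31 (SE 0.53, adjusted p = 0.805 in limma). The 95% interval ran from -1.41 to 0.80, so a difference as large as that of *Inhbb* could not be told from 0 at the spread between these pups. With 1 pup left out, the log2 fold change of *Inhba* ran from -0.64 (without PTU pup 1) to -0.034 (without PTU pup 2). Between 10 and 96 estimated reads stood behind each value, and the part of counting error in the spread was not tested.

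*Fst* encodes follistatin (row ENSRNOT00000015680) and also had few reads. Control pups had 1.97, 10.2 and 44.0 normalized counts as their lowest, median and highest values, and PTU exposed pups had 7.11, 14.3 and 89.6. PTU pup 1 stood apart from the other exposed pups, which had 18.4 or less and lay within the control range. The means were 19.0 ± 16.6 (SD, n = 7) and 25.8 ± 31.5 (SD, n = 6), and the log2 fold change was 0.44 (SE 0.68, 95% interval -0.99 to 1.87, adjusted p = 0.775 in limma). Its log2 fold change was -0.015 without PTU pup 1 and 0.73 without control pup 1. The number of estimated reads ranged from 2 to 99 per pup.

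The type II receptors *Acvr2a* and *Acvr2b* bind activin first. *Acvr2a* (row ENSRNOT00000007404) had a lowest, median and highest value of 211, 265 and 325 normalized counts in control pups and of 202, 297 and 480 in PTU exposed pups. PTU pup 6 held the highest value, and both groups shared the range from 211 to 325. The log2 fold change of *Acvr2a* was 0.20 (SE 0.18, 95% interval -0.19 to 0.58, adjusted p = 0.616 in limma), and it was 0.060 without PTU pup 6 and 0.31 without PTU pup 2. *Acvr2b* (row ENSRNOT00000118049) spanned 301 to 523 normalized counts around a median of 372 in control pups, and 304 to 529 around a median of 365 in PTU exposed pups. The ranges of *Acvr2b* were nearly the same in both groups, and its log2 fold change was 0.01 (SE 0.16, 95% interval -0.32 to 0.35, adjusted p = 0.972).

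Among the type I receptors, *Acvr1b* encodes the main signaling partner of activin, *Tgfbr1* that of TGF-beta, and *Acvr1* a receptor used mostly by bone morphogenetic proteins. *Acvr1b* (row ENSRNOT00000009345) had a lowest, median and highest value of 1004, 1216 and 1621 normalized counts in control pups and of 1105, 1425 and 1945 in PTU exposed pups. Of the 6 PTU exposed pups, 4 were above the control mean, with overlap of the groups, and the log2 fold change was 0.17 (SE 0.13, 95% interval -0.11 to 0.45, adjusted p = 0.54 in limma). It was 0.079 without PTU pup 6, 0.11 without control pup 1 and 0.24 without PTU pup 2. *Tgfbr1* (row ENSRNOT00000009452) spanned 1384 to 2008 normalized counts around a median of 1478 in control pups, and 1356 to 1795 around a median of 1512 in PTU exposed pups, with control pup 6 the highest. Its log2 fold change was -0.02 (SE 0.10, 95% interval -0.22 to 0.19, adjusted p = 0.949), and it ran from -0.061 to 0.046 with 1 pup left out. *Acvr1* (row ENSRNOT00000087071) spanned 821 to 1262 normalized counts around a median of 1114 in control pups, and 1045 to 1334 around a median of 1125 in PTU exposed pups. Control pup 5 was the lowest for *Acvr1*, and its log2 fold change was 0.08 (SE 0.10, 95% interval -0.14 to 0.29, adjusted p = 0.729), or 0.013 without control pup 5 and 0.035 without PTU pup 3.

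For these 5 receptors, exact permutation tests (two-sided) gave unadjusted p-values from 0.271 to 0.923. The 95% intervals of these 5 receptors leave out a difference as low as the -0.50 of *Inhbb*, while that of *Acvr2a* still includes a rise of 49.5%.

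*Smad2* and *Smad3* encode the transducers that activin and TGF-beta receptors phosphorylate. *Smad2* (row ENSRNOT00000109129) had a lowest, median and highest value of 635, 820 and 1015 normalized counts in control pups and of 779, 825 and 993 in PTU exposed pups. Its PTU exposed pups all lay within the control range, and the log2 fold change was 0.07 (SE 0.11, 95% interval -0.16 to 0.29, adjusted p = 0.797 in limma). With 1 pup left out it ran from 0.0037 (without control pup 3) to 0.12 (without control pup 1). *Smad3* (row ENSRNOT00000039730) had 247, 289 and 360 in control pups and 197, 269 and 329 in PTU exposed pups. The groups overlapped for *Smad3*, with 4 of the 6 PTU exposed pups below the control mean, and the log2 fold change was -0.14 (SE 0.15, 95% interval -0.45 to 0.17, adjusted p = 0.655), from -0.21 (without PTU pup 6) to -0.062 (without PTU pup 1) with 1 pup left out. With the same total for every pup, the sign of *Smad3* turned to 0.059 and that of *Tgfbr1* to 0.19, less than the shift of all rows. Relative to the median of all rows under this scaling, *Smad3* was at -0.15 and *Tgfbr1* at -0.019.

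The genes around these members were described through lists of other ligands, receptors, extracellular binding proteins, SMADs with their regulators, and targets. Of the 58 genes tested, 11 (19.0%) were lower with an unadjusted p under 0.05 and 3 (5.17%) were higher, where all rows gave 8.2% and 8.11%. These lists were also chosen with earlier results of these data known, so the shares here and below describe the lists only. None had an adjusted p of at most 0.05 or groups that did not overlap, and the median log2 fold change was -0.14. With the same total for every pup, the median of all rows moved to 0.20. In that setting 1 of these genes, *Ltbp1*, was lower with an unadjusted p under 0.05, at -0.51 (limma, adjusted p = 0.416).

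Of 14 extracellular binding proteins, 5 (35.7%) were lower and 1 (7.14%) higher with an unadjusted p under 0.05, against 8.2% and 8.11% over all rows. *Ltbp3*, which encodes a protein that anchors latent TGF-beta in the matrix, ranged from 3240 to 4324 normalized counts in control pups and from 2142 to 3279 in PTU exposed pups. Only the lowest control and the highest PTU exposed values of *Ltbp3* crossed, and its log2 fold change was -0.44 (SE 0.11; limma, adjusted p = 0.122, or 0.0393 when PTU pup 2 is left out). With equal totals it was -0.24 (adjusted p = 0.595). *Ltbp1* of the same family had means of 673 ± 163 (SD, n = 7) and 417 ± 123 (SD, n = 6) and a log2 fold change of -0.71 (SE 0.19, adjusted p = 0.136). *Ltbp2* had a log2 fold change of -0.58 and *Fstl1*, a follistatin-like glycoprotein, of -0.38 (adjusted p = 0.212 and 0.221). Over the 23 alternatives, *Ltbp2* came as near to 0 as -0.38 and *Fstl1* as -0.18. *Wfikkn2*, which encodes a secreted protein that binds GDF ligands, was at -0.81 and ranged from 213 to 1627 in PTU exposed pups (adjusted p = 0.297; exact permutation test, p = 0.106). Without PTU pup 6 the log2 fold change of *Wfikkn2* was -0.50, and its unadjusted p in limma was 0.141. *Tmeff1*, a membrane protein with follistatin domains, was the higher gene, with a log2 fold change of 0.31 (SE 0.12, adjusted p = 0.237).

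Of the 6 other ligands tested, 1 (16.7%) was lower with an unadjusted p under 0.05, against 8.2% over all rows, and a single gene is no result about the list. This was *Tgfb3*, with means of 184 ± 19.5 (SD, n = 7) and 135 ± 36.0 (SD, n = 6) and a log2 fold change of -0.48 (SE 0.18, adjusted p = 0.213 in limma). With equal totals *Tgfb3* was at -0.28 (unadjusted p = 0.288 in limma). Of 7 names listed as other receptors, 4 were tested, and none of these had an unadjusted p under 0.05. The names *Acvr1c*, *Tdgf1* and *Cripto* had no row, so these receptors were not examined. Named by the rule for such lists were *Tgfbr2*, the type II receptor of TGF-beta, at -0.22 (adjusted p = 0.355), and the co-receptor *Eng* at 0.05 (adjusted p = 0.876).

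Among 22 SMADs and regulators, 2 (9.09%) were higher and 2 (9.09%) lower with an unadjusted p under 0.05, close to the 8.11% and 8.2% over all rows, so these counts are not a result about the list. *Zfyve9*, whose product brings SMAD2 and SMAD3 to the receptor, had means of 1412 ± 82.9 (SD, n = 7) and 1697 ± 158 (SD, n = 6), with a log2 fold change of 0.26 (SE 0.08, adjusted p = 0.156 in limma). *Fkbp1a*, whose product keeps type I receptors inactive, had a log2 fold change of 0.26 (adjusted p = 0.294). The other 2 genes were *Tgif2*, a corepressor of SMAD-bound promoters, at -0.37 (SE 0.11, adjusted p = 0.148), and *Strap*, a receptor-associated inhibitor, at -0.29 (adjusted p = 0.222). *Smad4*, the shared partner of SMAD2 and SMAD3, had a log2 fold change of -0.12 (adjusted p = 0.477), and the inhibitory *Smad7* of -0.11 (adjusted p = 0.636).

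Of 14 genes listed as targets, 3 (21.4%) were lower and 0 higher with an unadjusted p under 0.05, against 8.2% and 8.11% over all rows. These were *Ccn2*, a matricellular growth factor, at -0.61, *Thbs1*, which encodes a matrix protein that can activate latent TGF-beta, at -0.47, and *Pmepa1*, a feedback inhibitor, at -0.34 (adjusted p = 0.242, 0.208 and 0.274 in limma). With equal totals, which moved the median of all rows to 0.20, these 3 genes were at -0.41, -0.27 and -0.14. Their unadjusted p in limma was then 0.131, 0.269 and 0.488. Over the 14 listed targets, 10 were lower and 4 higher, whatever their p, with a median log2 fold change of -0.23.

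**Figure D3:**
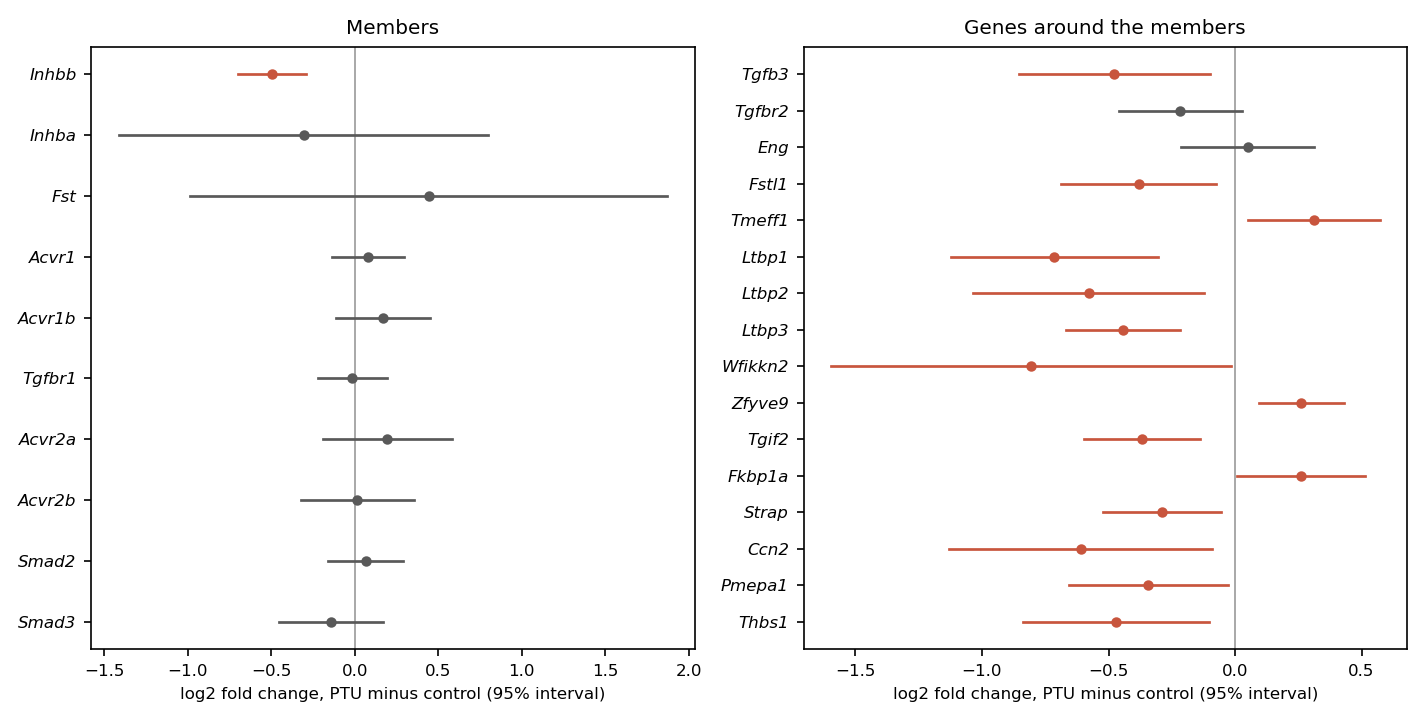
Log2 fold change (horizontal axes, PTU minus control) with its 95% interval in limma for the 10 genes (left) and for 16 genes around them (right), in red where the unadjusted p is under 0.05. Of the 10 genes, *Inhbb* alone is red, and of the 16 others, 11 are red and lower, 3 are red and higher, and *Tgfbr2* and *Eng* are gray. The red genes on the right were picked for an unadjusted p under 0.05, so their color follows from the choice. Of all 58 genes tested around the members, 44 did not have such a p.

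Marker lists of 8 cell types were set beside these values, and no marker had an adjusted p of at most 0.05 or groups that did not overlap. In bulk tissue fewer cells of a type and less RNA per cell cannot be told apart. The ventricular epithelium was the tissue captured, and the study describes choroid plexus cells as left out of the RNA-Seq. The source of the choroid plexus marker RNA was not tested. Radial glia markers, which define the VZ, were present in every pup, *Sox2* at means of 7107 ± 1050 (SD, n = 7) and 6701 ± 969 (SD, n = 6). Of the 11 radial glia markers, 11 were lower, 7 with an unadjusted p under 0.05, and their sum ranged from 99641 to 138808 normalized counts in control pups and from 82319 to 110988 in PTU exposed pups. All 11 choroid plexus markers were also lower, 6 with an unadjusted p under 0.05, with sums from 51957 to 146137 and from 24209 to 103981. Of the 12 neuron markers, 11 were higher, 5 with an unadjusted p under 0.05, with sums from 55211 to 79665 and from 71356 to 129236. Over all rows, 8.2% were lower and 8.11% higher at that p. None of the markers in these lists was at 0 in any pup.

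In the oligodendrocyte lineage list, 8 of 8 markers were higher, 3 with an unadjusted p under 0.05 (37.5%, against 8.11% over all rows). The endothelial list had 4 of 5 higher and the microglia list 6 of 8, the meningeal fibroblast list had 3 of 5 lower and the ependymal list 5 of 6. No row carried *Cldn5*, *Flt1* or *Ly6c1* of the endothelial list, or *Dcn*, *Lum* or *Ogn* of the meningeal list. *Foxj1* and *Mia* (ependymal), *Ptprz1* (radial glia) and *Cldn2* (choroid plexus) were also without a row. With an unadjusted p under 0.05 there were 0 in the endothelial and meningeal lists, and 1 lower gene in each of the microglia (12.5%) and ependymal (16.7%) lists, against 8.2% over all rows.

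Marker scores were also set beside the members within groups. Over the 13 pups, with values centred in each group, *Inhba* had a Pearson r of 0.89 with the neuron marker score and of -0.74 with the radial glia score. *Inhbb* had an r of 0.59 with the radial glia score, 0.23 with the choroid plexus score and -0.29 with the neuron score. The largest values for the other genes were -0.78 for *Acvr2a* and -0.70 for *Smad2*, both with the ependymal score. These values describe 13 libraries that share a scaling, and the part of the marker differences in the *Inhbb* difference was not tested.

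**Figure D4:**
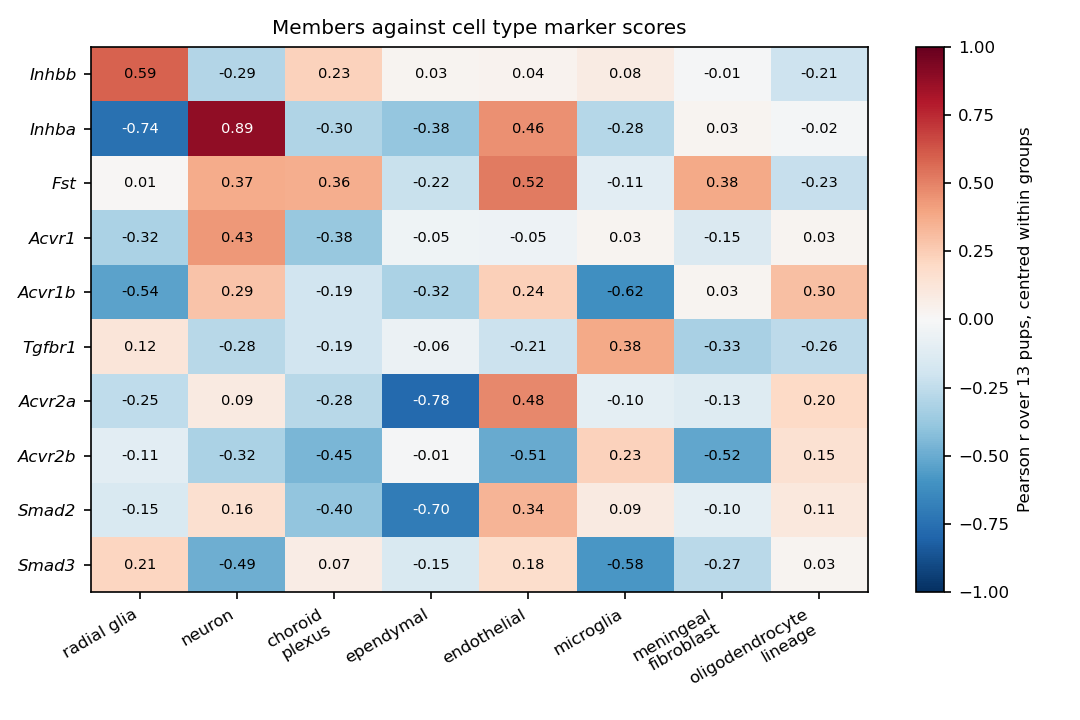
Pearson r over 13 pups, centred within groups, between log2 values of each of the 10 genes (rows) and the mean centred log2 value of 8 cell type marker lists (columns), in color from blue (-1) to red (1). The strongest cell is *Inhba* with neuron markers at 0.89, and the strongest for *Inhbb* is radial glia at 0.59.

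The 10 genes did not vary as a block between pups. Over their 45 pairs, the median r within groups was 0.04, with 2 pairs above 0.5 and 1 below -0.5. The highest was *Acvr2a* with *Smad2* at 0.78, followed by *Inhba* with *Acvr1* at 0.57, and the lowest was *Fst* with *Acvr2b* at -0.68. *Inhba* and *Inhbb* had an r of -0.49.

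The rows most like the secreted members within groups were also sought among the tested rows that carry a gene name. They are the highest of a search over all these rows with 13 pups. Such a search also finds high r among unrelated rows, and whether these r exceed that was not tested. For *Inhbb* they were *Asrgl1*, *Veph1* and *Prex1*, with r of 0.87, 0.86 and 0.84 over the 13 pups. Of these, *Prex1* had a log2 fold change of -0.28 (adjusted p = 0.133 in limma), *Veph1* of -0.25 and *Asrgl1* of -0.12. For *Inhba* they were *Snap25*, which was also in the neuron list, at 0.94, *Lancl2* at 0.93 and the row named AABR07069466.1 at 0.92. For *Fst* they were *Lrp1b* at 0.92, *Gpi* at 0.91 and *Arf1* at 0.89.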

How the data were processed

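The deposited table was made by the authors, who trimmed the reads with Trimmomatic and aligned them to mRatBN7.2 (rn7) with STAR 2.7.8a. They estimated counts with the expectation/maximization model in Partek, which shares out a read fitting several transcripts. The deposited values are these counts divided by a median ratio factor per pup, hence a signal that is never negative and not raw counts; the p-values, false discovery rates, ratios, fold changes and group means of the authors' own comparison are in the same table and were not used. Rows are named by Ensembl identifiers, 14466 of them transcript identifiers and 250 gene identifiers, although RefSeq is the annotation given in the methods. Whether a row stands for a transcript or a gene is not settled. Groups came from the sample labels, and 0 columns of sample values were left out. Reads were estimated from the step between low values (20 to 150). Between 90.0 and 91.7% of these lay within 0.1 of a whole read, short of the 95% minimum set here, so no count model was used. All rows whose mean reached 10 entered limma 3.58.1 in R 4.3.3 on log2(value + 1) (variance trend, Benjamini-Hochberg over all rows), after it was tested on simulated data. Single values were compared with an exact permutation test over 1716 regroupings. Python 3.11.15 was used otherwise.

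The 10 genes and the lists were chosen with earlier results of these data known. Named genes are all 10 members, the genes of each pathway list with an unadjusted p under 0.05 (otherwise the 2 with the highest mean), and for *Inhba*, *Inhbb* and *Fst* the 3 named rows with the highest within-group correlation. *Smad4*, *Smad7* and the marker *Sox2* were added after their values were seen. Alternatives were pseudocounts of 0.1 and 10, no filter, a mean of at least 100, TMM factors, equal totals, summed rows, array weights, no variance trend, a replicate block and each pup left out.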

Additional observations from a re-analysis of the deposited data

Results flagged for a closer look

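In 52 groups of pups tested for 1 value far from the others (Dixon's test, log2 scale), 3 were found, where chance gives about 5%. *Fst* in PTU pup 1 had 89.6 normalized counts, while the other PTU exposed pups had 7.11 to 18.4 (gap 0.638 of the range, critical value 0.625). *Tgif2* in control pup 4 had 843 normalized counts, below the 1025 to 1138 of the other control pups (gap 0.651, critical value 0.568). *Fkbp1a* in PTU pup 2 had 935 normalized counts, below the 1305 to 1566 of the other PTU exposed pups (gap 0.646, critical value 0.625).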

How the results depend on the processing

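*Inhbb* stayed lower in all 23 alternatives, from -0.54 to -0.29 on the log2 scale with adjusted p from 0.0305 to 0.532 in limma, and from -0.54 to -0.45 with 1 pup left out. With array weights it was -0.52 (adjusted p = 0.0381). Rows with an adjusted p of at most 0.05 numbered 40 with array weights, 18 with a replicate block and from 0 to 179 with 1 pup left out. With the same total for every pup, rows with an unadjusted p under 0.05 that were lower numbered 81 instead of 1198, and lower pathway genes 1 instead of 11. Higher pathway genes numbered 2 to 5 with 1 pup left out, against 3. Signs turned in 5 genes, for *Smad3* only with the same total, where the median of all rows was 0.20. *Tgfbr1* was 0.19 with the same total, 0.048 with array weights and -0.061 to 0.046 with 1 pup left out, *Smad3* was 0.059 with the same total, and *Acvr2b* was -0.036 with the replicate block and -0.081 to 0.094 with 1 pup left out. *Fst* ran from -0.015 to 0.73 and *Eng* from -0.018 to 0.11 with 1 pup left out. A mean of at least 100 left no value for *Inhba* and *Fst*. The causes of these changes were not tested.

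Replicate numbers are shared by control and PTU exposed pups of different litters. The correlation of same-numbered pups ranged from -0.07 to 0.20, with 4 of 6 pairs above 0.1 and 1 of 6 pups closest to its own number. The numbers were not used as pairs in the main test, and whether same-numbered pups shared a processing step was not tested. With the replicate block, in which control pup 7 has no partner and adds nothing to the difference, *Inhbb* was -0.53 (adjusted p = 0.0535). *Inhba* and *Fst* had 10 to 96 and 2 to 99 estimated reads per pup, and whether depth limits them was not tested.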
